A study of Mus musculus with 6 samples.

Results

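The AMPA receptor is the ion channel through which most fast excitatory signals pass between neurons, and 10 genes that code for it or for proteins bound to it are described here in the hippocampus of aged mice after sevoflurane, a volatile anaesthetic. They are the 4 pore subunits Gria1, Gria2, Gria3 and Gria4, the 4 transmembrane regulatory proteins Cacng2, Cacng3, Cacng5 and Cacng8, and the 2 Shisa proteins Shisa6 and Shisa9. The genes were chosen by symbol with earlier results of these data known, and all 10 were found among the 32285 genes of the deposited matrices. Single-nucleus RNA sequencing had been done on frozen hippocampi of mice given as 18 to 20 months old, in 3 libraries of a sevoflurane group and 3 libraries of an oxygen group. The sevoflurane group breathed 2% sevoflurane in 60% oxygen for 6 h at 1 L/min, and the oxygen group breathed 60% oxygen without the anaesthetic for as long and at the same flow, so every animal received raised oxygen. The series title concerns delayed recovery of cognition after an operation, but the labels name no operation, genotype or strain, nor the number of animals in a library, so that p-values measure the spread between libraries, which may be technical.

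AMPA receptors are assembled from pore subunits in different combinations. A receptor that contains the edited Gria2 subunit lets little calcium through, and receptors rich in Gria1 and Gria4 without Gria2 are typical of many inhibitory neurons and glial precursors. The Cacng proteins (transmembrane AMPA receptor regulatory proteins) bring receptors to the membrane, anchor them at the postsynaptic density and slow their closing, while the Shisa proteins bind the same receptors and change how fast they desensitise and recover. Shisa9 was first studied in dentate gyrus synapses, and Cacng8 is the regulatory protein best known from hippocampal pyramidal neurons.

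Nuclei were sorted into classes by clusters and marker genes, and UMIs (unique molecular identifiers, counted RNA molecules) were summed per library within each class. The deposited totals ranged from 56334621 to 72636984 UMIs per library, and 51874 nuclei were used. Of these, 9901 were dentate granule-like, 4528 CA1 pyramidal-like, 322 CA2 pyramidal-like, 2114 CA3 pyramidal-like, 4100 subicular or cortical excitatory-like, 3082 inhibitory-like and 1148 oligodendrocyte precursor-like. Any pair of libraries shared 15 to 33 cell barcodes, at most 0.362% of the smaller library. The labels give replicate 3 of both groups as female and the rest as male, but the sex-linked genes go against 3 of the 6 labels. Xist stood at 1370 CPM (counts scaled to a common library size) in sevoflurane replicate 1, labelled male, and at 1.2 CPM or less in the other 5 libraries, and 4 Y-linked genes summed to 0.349 CPM there and to 341 to 374 CPM in the others, both libraries labelled female included. Calls of the members in these 7 classes, and of differences between the classes, are therefore given without sevoflurane replicate 1 wherever the call changed. Fits with a library left out were not run for inhibitory subtypes, single clusters, comparison classes or other pathway genes. Choroid plexus-like nuclei came only from the oxygen libraries (60, 16 and 99), and the choroid marker list, 7 genes of which none was at 0, summed to 24.4 to 26.2 CPM in dentate granule-like nuclei of the sevoflurane libraries against 79.7 to 379 CPM in the oxygen libraries. In the choroid plexus-like nuclei themselves the pooled level of Shisa9 was 18.1 CPM, below its level in every oxygen library of all 7 classes, and no Cacng5 UMI was counted. The part of this RNA in the values of any member was not tested.

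Levels of the members differed more between classes than between the groups. Levels are CPM on normalised library sizes, given as the mean ± SD over the 6 libraries, and since the counts come from nuclei, genes are compared with each other only per kb of gene span (the distance from start to end, introns included). Microglia-like nuclei, which should hold little of these transcripts, still showed 448 ± 45.5 CPM of Gria1 and 808 ± 59.4 CPM of Gria2, so that values near these cannot be told apart from free RNA taken up by any nucleus. Inhibitory subtypes and mossy-like nuclei were taken from a finer clustering, chosen after the data were seen.

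**Figure D1:**
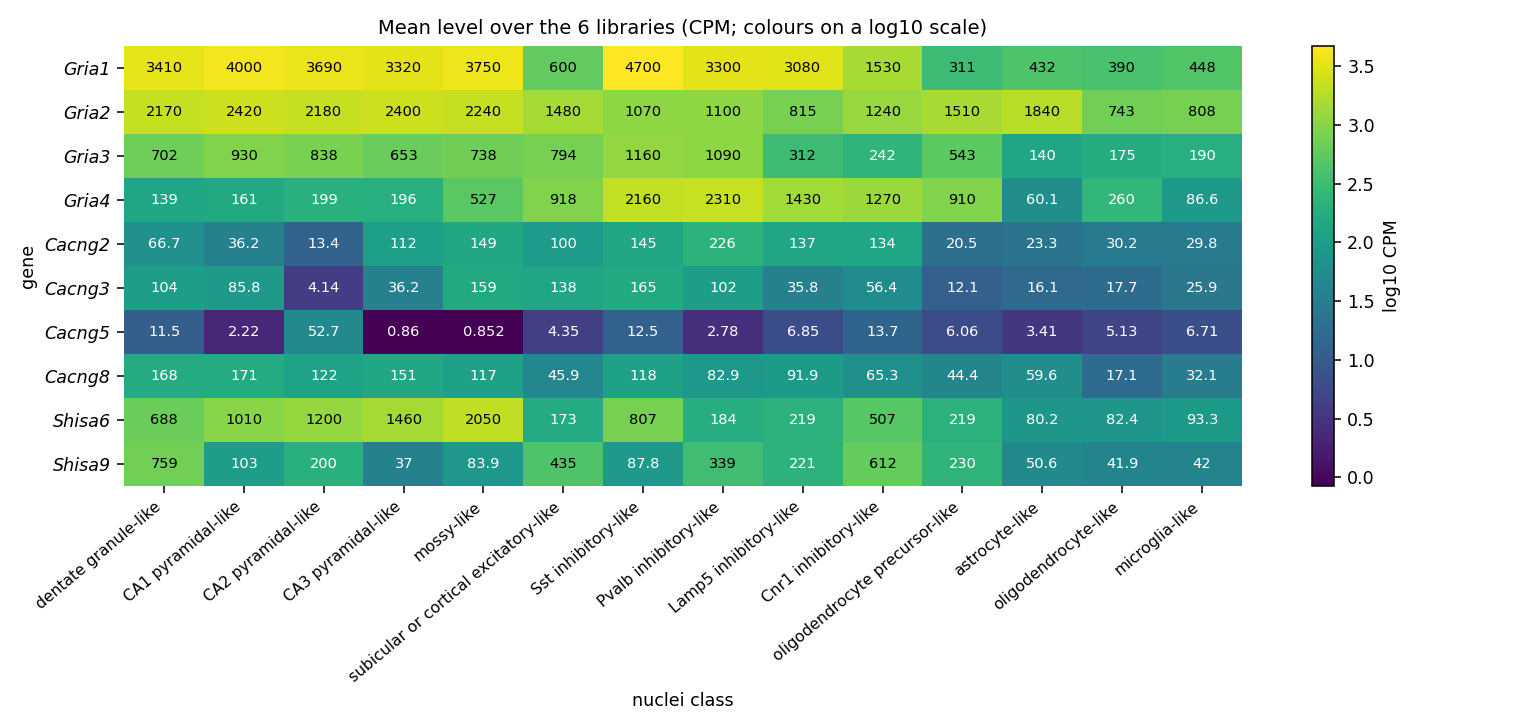
Mean level of each of the 10 genes (rows) in 14 classes of nuclei (columns), in CPM over 6 libraries, with colours on a log10 scale. Gria4 reaches 2310 CPM in Pvalb inhibitory-like nuclei and 139 CPM in dentate granule-like nuclei, while Cacng5 has its highest level, 52.7 CPM, in CA2 pyramidal-like nuclei.

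Among the pore subunits, Gria1 was highest in Sst inhibitory-like nuclei (4700 ± 656 CPM), followed by CA1 pyramidal-like nuclei (4000 ± 532 CPM), and the libraries' ranges of these and the next 6 classes overlapped from neighbour to neighbour. It then dropped to 1530 ± 261 CPM in Cnr1 inhibitory-like and 600 ± 70.1 CPM in subicular or cortical excitatory-like nuclei, each step without overlap, and in oligodendrocyte precursor-like nuclei it stood at 311 ± 25.8 CPM, below the microglia-like value. Gria2, the subunit that restricts calcium, was highest in CA1 pyramidal-like (2420 ± 231 CPM) and CA3 pyramidal-like nuclei (2400 ± 221 CPM) and about as high in mossy-like, CA2 pyramidal-like and dentate granule-like nuclei. Its lowest neuronal level, 815 ± 44 CPM in Lamp5 inhibitory-like nuclei, overlapped the microglia-like range. Gria3, the X-linked subunit, ranged among neurons from 1160 ± 123 CPM in Sst inhibitory-like to 242 ± 36.3 CPM in Cnr1 inhibitory-like nuclei, and was lowest in astrocyte-like nuclei (140 ± 9.47 CPM). Gria4 ran the other way from Gria2, with 2310 ± 315 CPM in Pvalb inhibitory-like, 2160 ± 235 CPM in Sst inhibitory-like and 910 ± 217 CPM in oligodendrocyte precursor-like nuclei but only 139 ± 17.4 CPM in dentate granule-like nuclei. Per kb of span in the oxygen libraries, dentate granule-like nuclei held 18.0 CPM of Gria2, 11.4 of Gria1, 2.62 of Gria3 and 0.402 of Gria4, whereas inhibitory-like nuclei held 9.06, 10.8, 2.83 and 5.43 CPM per kb of the same genes.

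The regulatory proteins divided the classes in another way. Cacng2 (stargazin) was highest in Pvalb inhibitory-like nuclei (226 ± 19.4 CPM), apart from mossy-like nuclei (149 ± 25.4 CPM), and lowest in CA2 pyramidal-like nuclei (13.4 ± 11.8 CPM), where its range overlapped that of microglia-like nuclei. Cacng3 lay between 165 ± 37.7 CPM in Sst inhibitory-like and 4.14 ± 2.06 CPM in CA2 pyramidal-like nuclei. Cacng8 was highest in CA1 pyramidal-like (171 ± 33.0 CPM) and dentate granule-like nuclei (168 ± 13.5 CPM), whose ranges overlapped. Cacng5 was the member with the narrowest distribution: CA2 pyramidal-like nuclei held 52.7 ± 13.2 CPM, with no overlap with the next class, Cnr1 inhibitory-like nuclei at 13.7 ± 4.23 CPM, while CA1 pyramidal-like nuclei held 2.22 ± 1.32 CPM and CA3 pyramidal-like nuclei 0.860 ± 0.378 CPM. CA2 was thus the class with the highest Cacng5 and the lowest Cacng2 and Cacng3 of the 14 classes compared.

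The 2 Shisa genes had their highest levels in different excitatory classes. Shisa6 was highest in mossy-like (2050 ± 233 CPM) and CA3 pyramidal-like nuclei (1460 ± 257 CPM) and had 688 ± 92.4 CPM in dentate granule-like nuclei. Shisa9 was highest in dentate granule-like nuclei (759 ± 169 CPM), overlapping Cnr1 inhibitory-like nuclei (612 ± 127 CPM), and lowest in CA3 pyramidal-like nuclei (37.0 ± 16.9 CPM), overlapping microglia-like nuclei (42.0 ± 9.01 CPM). These spreads include both groups, and for Shisa9 the groups lay apart, as shown in the plot of Shisa9 by library.

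Genes with the most similar pattern were found by Pearson correlation of mean log2 CPM over 10 classes of the oxygen libraries, a description in which all points share libraries. Gria1 was most like Trpc4 (r = 0.972), C78859 (0.972) and Nup93 (0.968). Gria2 was most like Katnal2 (0.971) and 4933411O13Rik (0.933). For Gria3 the closest were Pdzd4 (0.993), Ica1 (0.990) and Fam155a (0.981), and for Gria4 they were Lmbr1 (0.954), Vezt (0.945) and Gas2 (0.935). Cacng2 was closest to Rgs8 (0.958), Gm17276 (0.935) and Galnt14 (0.931), and Cacng3 to Zmat4 (0.935), Sept11 (0.934) and Ttc3 (0.918). Cacng5 was closest to Ankrd31 (0.941), Gm43154 (0.862) and Dusp4 (0.855). Cacng8 was closest to Gm44151 (0.956), 1700087I21Rik (0.946) and Gabra2 (0.925), and Shisa6 to Lurap1l (0.993), Gm12296 (0.978) and Lrrc20 (0.950). Gm44151 and Gm12296 overlap Cacng8 and Shisa6 on the opposite strand, and no source used here says that counting was by strand, so reads of each pair may not be separable. Shisa9 was closest to Xkr6 (0.926), Pdzrn4 (0.916) and Dtd1 (0.916).

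Sevoflurane was compared with oxygen within each class by edgeR's quasi-likelihood test with Benjamini-Hochberg adjustment over all genes of the class, and a gene is called at an adjusted p under 0.05. Fewer nuclei of a subtype within a class and less RNA per nucleus cannot be told apart in such sums. Shisa9 fell in 6 of 7 classes, Shisa6 in 4, Gria4 in 3, Gria1 in 2, and Cacng2 and Cacng8 in 1 each, whereas Cacng5 rose in 1 class and no other member rose. Of the 70 pairs of member and class, 4 were too low to be tested, and 1 of the 66 tested was called higher and 17 lower. The log2 fold change was below 0 in 57 of the 66, and in 45 after the correction for gene span described below. The pairs share libraries, and the share of all genes below 0 was not counted, so 57 has no background beside it.

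**Figure D2:**
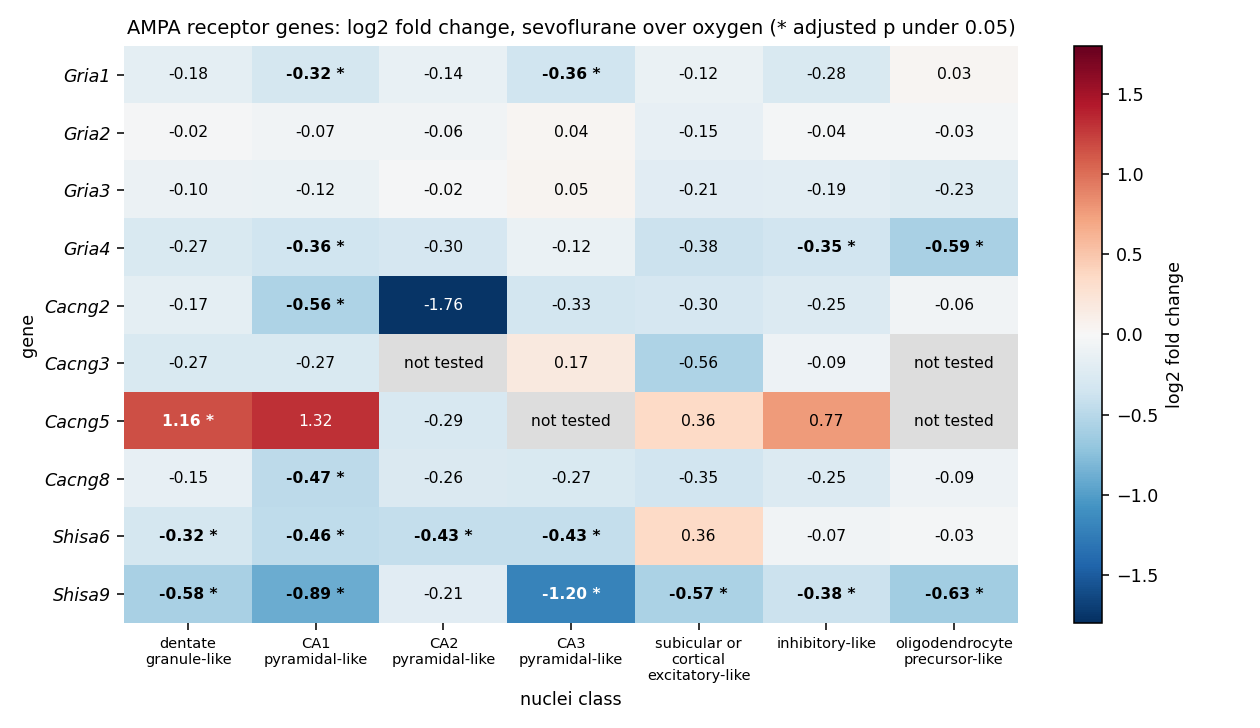
Log2 fold change (colour and number) of sevoflurane over oxygen for the 10 genes (rows) in the 7 classes of neurons and precursors (columns), with an asterisk at an adjusted p under 0.05. Shisa9 is negative in all 7 classes, from -1.20 in CA3 pyramidal-like to -0.21 in CA2 pyramidal-like nuclei, and Cacng5 reaches 1.16 in dentate granule-like nuclei.

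These counts stand beside the share of all genes called in the same fit. The members were chosen with earlier results of these data known, so the shares are no test of the members as a set. Dentate granule-like nuclei had 1 of 10 members called higher and 2 lower, where 1.46% of 15982 genes were called higher and 3.25% lower. CA1 pyramidal-like nuclei had 0 of 10 called higher and 6 lower, where 0.428% of 14712 genes were higher and 1.47% lower. In CA2 pyramidal-like nuclei 1 of 9 tested members was called lower, beside 0.531% of 8098 genes lower and 0.185% higher. CA3 pyramidal-like nuclei had 3 of 9 members lower, beside 1.06% of 13386 genes lower and 0.209% higher. Subicular or cortical excitatory-like nuclei had 1 of 10 lower, beside 1.64% of 14666 genes lower and 0.62% higher. Inhibitory-like nuclei had 2 of 10 lower, beside 1.18% of 14117 genes lower and 0.34% higher, and oligodendrocyte precursor-like nuclei had 2 of 8 lower, beside 0.94% of 9573 genes lower and 0.094% higher. The median log2 fold change of the tested members was -0.18, -0.34, -0.26, -0.27, -0.26, -0.22 and -0.08 in these classes in the same order, and that of all genes lay between 0.01 and 0.02.

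Most members are long genes, and long genes fell more often than others in every class. The spans run from 25.0 kb (Cacng8) to 378 kb (Gria4), with 7 of 10 at 100 kb or more, against a median of 12.3 kb for annotated genes. Of the genes of at least 100 kb, 15.2% were called lower in dentate granule-like nuclei, 6.61% in CA1 pyramidal-like nuclei and 1.87% in CA2 pyramidal-like nuclei, with medians of -0.14, -0.12 and -0.09. When a trend of each library with gene span was removed, 5 of the 17 lower calls were kept and 12 were lost. The 5 were Shisa9 in dentate granule-like (log2 fold change -0.41), CA1 pyramidal-like (-0.75) and CA3 pyramidal-like nuclei (-1.05), and Cacng2 (-0.49) and Cacng8 (-0.49) in CA1 pyramidal-like nuclei, beside 1.53%, 0.7% and 0.508% of all genes called lower in those 3 classes. Cacng5 in dentate granule-like nuclei stayed called (1.15), beside 1.36% of genes called higher.

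**Figure D3:**
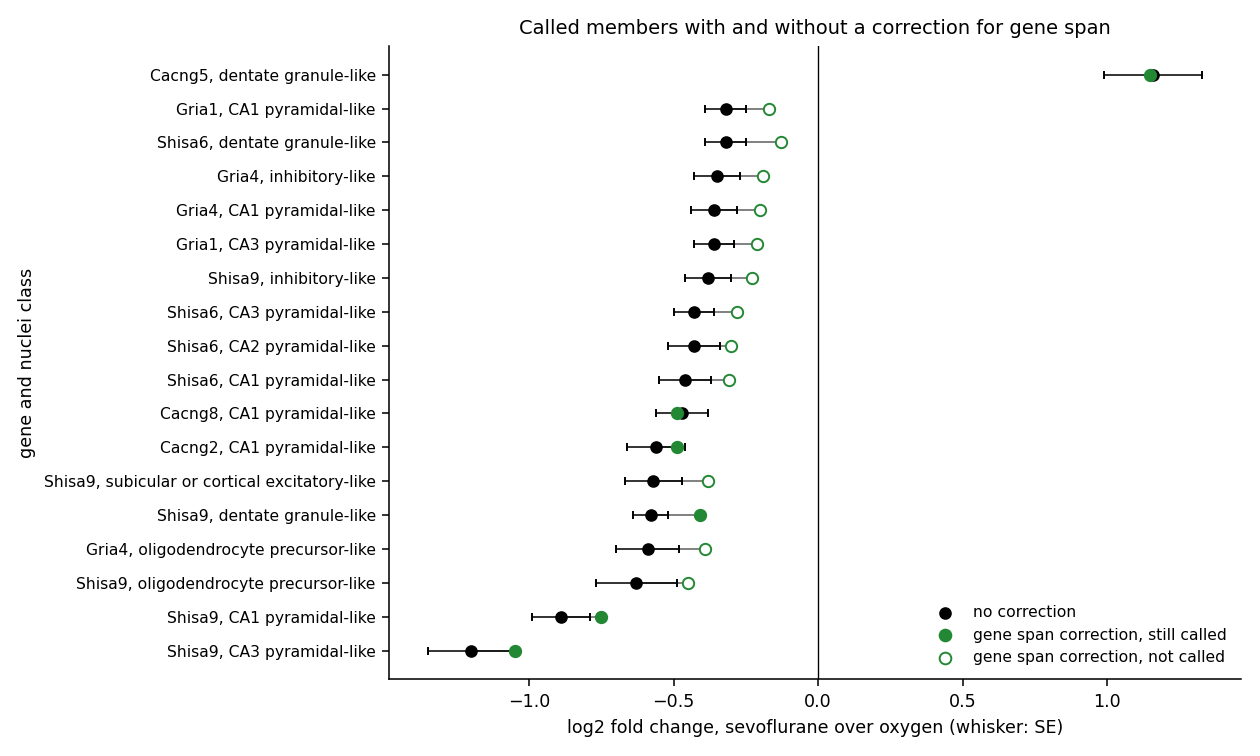
Log2 fold change of the 18 called pairs of gene and class (rows) without correction (black, whisker SE) and after removal of a trend with gene span (green, filled where the adjusted p stayed under 0.05). The long genes Gria1, Gria4 and Shisa6 move toward 0 and lose their calls, while Cacng5 and Cacng8, the shortest members, hardly move.

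Gria1 (chr11:57011387-57330244, plus strand, mm10) codes for the subunit whose traffic to the synapse changes during plasticity. In CA1 pyramidal-like nuclei it stood at 4350, 4700 and 4260 CPM in the oxygen libraries and at 3250, 3630 and 3810 CPM in the sevoflurane libraries, in the order of replicates 1 to 3. All 3 sevoflurane libraries lay below all 3 oxygen libraries, and the log2 fold change was -0.32 (SE 0.07, edgeR adjusted p 0.0344). In CA3 pyramidal-like nuclei the oxygen libraries held 3790, 3950 and 3470 CPM and the sevoflurane libraries 2680, 3000 and 3050 CPM. The groups again did not overlap, and Gria1 fell by 0.36 on the log2 scale (SE 0.07, adjusted p 0.0175). Without sevoflurane replicate 1 that change was -0.30 (adjusted p 0.0521), without oxygen replicate 1 -0.36 (0.0660) and without oxygen replicate 2 -0.34 (0.0502). The CA1 call was lost without sevoflurane replicate 2 or without oxygen replicate 1, 2 or 3, with values from -0.36 to -0.28 and adjusted p from 0.0805 to 0.171. With the span correction the changes were -0.17 (adjusted p 0.176) in CA1 and -0.21 (adjusted p 0.114) in CA3 pyramidal-like nuclei. In dentate granule-like nuclei (-0.18, SE 0.07, adjusted p 0.192) and inhibitory-like nuclei (-0.28, SE 0.08, adjusted p 0.0955) the sevoflurane libraries were also all below the oxygen libraries but the test was not passed. In inhibitory-like nuclei it was passed by DESeq2 (-0.29, adjusted p 0.00484) and by edgeR without the filter on low counts (-0.29, adjusted p 0.00294).

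Gria2 (chr3:80681450-80802835, minus strand) was called in no class. In dentate granule-like nuclei it stood at 2040, 2320 and 2200 CPM in the oxygen libraries and 2370, 1930 and 2140 CPM in the sevoflurane libraries, and in CA1 pyramidal-like nuclei at 2380, 2510 and 2530 CPM against 2750, 2090 and 2250 CPM. Sevoflurane replicate 1, the library with Xist, was the highest of the 6 in both and sevoflurane replicate 2 the lowest, so the groups overlapped. The log2 fold changes over the 7 classes lay between -0.15 and 0.04, and in CA1 pyramidal-like nuclei the change was -0.07 (SE 0.09, adjusted p 0.75). The ratio of raw Gria1 to raw Gria2 counts, which needs no library size, was 1.73, 1.59 and 1.44 in the oxygen libraries and 0.978, 1.41 and 1.26 in the sevoflurane libraries of CA3 pyramidal-like nuclei. Those groups did not overlap, whereas in CA1 pyramidal-like nuclei the ratios of 1.83, 1.88 and 1.68 overlapped those of 1.18, 1.74 and 1.69. Such single ratios are given without a test, since an exact permutation test of 3 against 3 cannot give a p below 0.1.

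Gria3 (chrX:41400854-41678601, plus strand), an X-linked subunit, was called in no class either, with log2 fold changes between -0.23 and 0.05. In oligodendrocyte precursor-like nuclei the oxygen libraries held 591, 604 and 556 CPM and the sevoflurane libraries 529, 436 and 545 CPM. These groups did not overlap, and the change was -0.23 (SE 0.11, adjusted p 0.436).

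Gria4 (chr9:4417896-4796234, minus strand), the fast subunit of inhibitory neurons and glial precursors, fell in 3 classes. In oligodendrocyte precursor-like nuclei it stood at 1100, 1210 and 954 CPM in the oxygen libraries and 783, 641 and 771 CPM in the sevoflurane libraries. No sevoflurane library reached the lowest oxygen library, and the log2 fold change was -0.59 (SE 0.11, adjusted p 0.00469). It lost its call without oxygen replicate 2 (-0.52, adjusted p 0.102) and with the span correction (-0.39, adjusted p 0.0949). The precursor marker list, 7 genes of which none was at 0, moved beside it, summing to 9640 to 11300 CPM in the sevoflurane and 11400 to 12100 CPM in the oxygen libraries, with 1 of 7 markers lower in every sevoflurane library. In the same nuclei the Cajal-Retzius list (7 genes, 1 lower in every sevoflurane library, Lhx5 at 0) summed to 21.5 to 46.0 CPM after sevoflurane against 89.1 to 126 CPM, and the Lamp5 list (8 genes, 1 lower in every sevoflurane library, none at 0) to 85.8 to 126 against 183 to 225 CPM. The Cajal-Retzius and Lamp5 lists share Reln and Ndnf, so their sums are not independent of each other. The choroid plexus list also lay lower without overlap (10.7 to 19.7 against 170 to 833 CPM). So did the Sst (573 to 590 against 641 to 722 CPM) and Pvalb lists (153 to 171 against 175 to 211 CPM). The CA3 list was lower too (427 to 475 against 481 to 520 CPM), with 2 of 8 genes higher in every sevoflurane library. No list lay higher without overlap. The part of all these lists in the falls of Gria4 and Shisa9 in precursor-like nuclei was not tested. The ratio of raw Gria4 to raw Gria2 counts was 0.730, 0.776 and 0.639 in the oxygen libraries and 0.486, 0.460 and 0.516 after sevoflurane in this class, again without overlap.

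In inhibitory-like nuclei Gria4 stood at 1920, 2190 and 2040 CPM in the oxygen libraries and 1670, 1460 and 1660 CPM in the sevoflurane libraries, so the groups lay apart (log2 fold change -0.35, SE 0.08, adjusted p 0.0308). This call was lost without sevoflurane replicate 2 or 3 or without oxygen replicate 2 or 3 (-0.38 to -0.30, adjusted p 0.0564 to 0.151), and with the span correction (-0.19, adjusted p 0.326). By subtype, Gria4 fell in Lamp5 inhibitory-like nuclei (-0.52, SE 0.10, adjusted p 0.00815), where 1.35% of genes were called lower, and in Cnr1 inhibitory-like nuclei (-0.47, SE 0.11, adjusted p 0.0426), where 0.465% were. Of the genes of at least 100 kb, 5.67% were called lower in the Lamp5 and 2.11% in the Cnr1 subtype. Neither the span correction nor fits with 1 library left out were run for subtypes. In Sst inhibitory-like (-0.21, SE 0.10, adjusted p 0.445) and Pvalb inhibitory-like nuclei (-0.29, SE 0.10, adjusted p 0.296) it did not pass, and the difference between subtypes was not tested. The Lamp5 marker list, 8 genes of which none was at 0 and 3 were lower in every sevoflurane library, summed to 631 to 756 CPM in the inhibitory-like nuclei of the sevoflurane libraries against 893 to 993 CPM. The Pvalb list (622 to 762 against 779 to 858 CPM) and the Sst list (435 to 478 against 489 to 558 CPM), each of 6 genes with 1 lower in every sevoflurane library and none at 0, also lay lower without overlap. So did the Cajal-Retzius list of 7 genes, with Lhx5 at 0 (469 to 540 against 675 to 742 CPM). It shares Reln and Ndnf with the Lamp5 list. The inhibitory list itself overlapped between groups, with 3 of its 5 genes higher and 1 lower in every sevoflurane library. The Cnr1 list overlapped as well (4260 to 4960 against 4670 to 6190 CPM). The CA2 (93.3 to 134 against 85.7 to 89.8 CPM) and ependymal lists (17.1 to 21.9 against 12.7 to 15.1 CPM) lay higher without overlap. The CA3 (755 to 769 against 887 to 969 CPM) and choroid plexus lists (9.72 to 12.5 against 58.3 to 302 CPM) lay lower. The part of all these lists was not tested. In CA1 pyramidal-like nuclei Gria4 had 184, 173 and 183 CPM in the oxygen libraries and 150, 128 and 145 CPM in the sevoflurane libraries. Its change of -0.36 (SE 0.08, adjusted p 0.0466) kept its call among the fits with 1 library left out only without sevoflurane replicate 1. In the other 5 it was -0.39 to -0.29 with an adjusted p of 0.0669 to 0.150, and with the span correction it was -0.20 (adjusted p 0.250).

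Cacng5 (chr11:107874605-107915055, minus strand), a regulatory protein known for acting on only some subunit combinations, was the one member that rose. In dentate granule-like nuclei it stood at 7.62, 5.49 and 8.34 CPM in the oxygen libraries (77, 82 and 85 UMIs) and at 16.0, 17.5 and 13.9 CPM in the sevoflurane libraries (254, 262 and 225 UMIs). Every sevoflurane library was above every oxygen library, and the log2 fold change was 1.16 (SE 0.17, edgeR adjusted p 0.00486), a 2.24-fold rise. The call held in all 6 fits with 1 library left out, with changes of 0.98 to 1.29. The class joins clusters that the groups filled unequally: cluster 1 held 585, 300 and 816 sevoflurane and 691, 1720 and 972 oxygen nuclei, and cluster 2 held 1500, 1542 and 797 sevoflurane and 339, 213 and 340 oxygen nuclei. Within cluster 1 alone Cacng5 had 6.37, 5.44 and 6.96 CPM in the oxygen and 12.2, 14.0 and 12.7 CPM in the sevoflurane libraries (log2 fold change 1.07, SE 0.16, adjusted p 0.00385), where 1.74% of genes were called higher. Within cluster 2, on 29, 5 and 26 oxygen UMIs, it was 0.80 (SE 0.23, adjusted p 0.138), again with the groups apart.

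**Figure D4:**
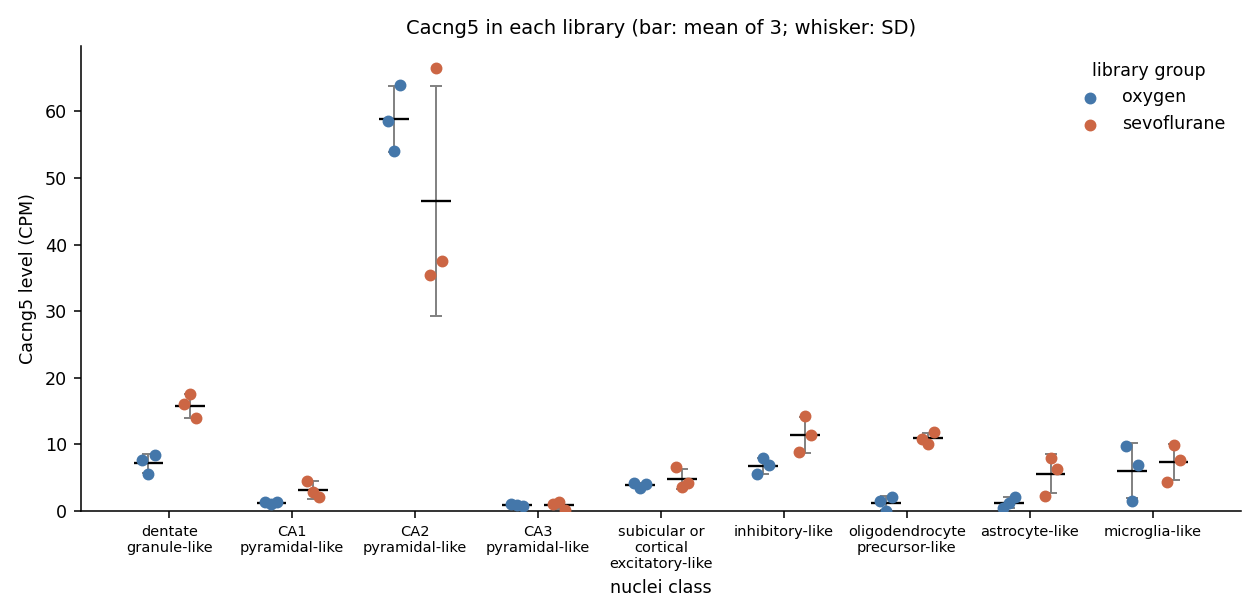
Cacng5 level in CPM (linear axis) in each library of 9 classes, oxygen in blue and sevoflurane in orange, with the mean of 3 libraries as a bar and the SD as a whisker. In dentate granule-like nuclei the sevoflurane libraries lie at 13.9 to 17.5 CPM and the oxygen libraries at 5.49 to 8.34 CPM, and CA2 pyramidal-like nuclei hold the highest levels.

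The rise was spread over many nuclei with few molecules each. In the sevoflurane libraries 9.46%, 12% and 11.5% of dentate granule-like nuclei had a Cacng5 UMI, and in the oxygen libraries 6.11%, 3.70% and 5.66%, with at most 5 UMIs in 1 nucleus. With every nucleus thinned to 2000 UMIs, leaving out 18 to 84 shallower nuclei per library, the shares were 3.23%, 3.27% and 2.76% after sevoflurane and 1.19%, 0.836% and 1.51% in the oxygen libraries. Microglia-like nuclei thinned in the same way had shares of 0.395% to 2.37% among 103 to 182 nuclei per library, with median depths before thinning of 1913 to 2331 UMIs against 6297 to 7896 UMIs in dentate granule-like nuclei. The oxygen shares of dentate granule-like nuclei lay within this range. The sevoflurane shares lay past its upper end, which rests on so few nuclei that a level above background is not shown by these shares. A cluster that was left unnamed for its low depth (cluster 4, median 790 UMIs) held 32.0, 19.0 and 12.2 CPM of Cacng5 in the sevoflurane libraries, relative to the cluster's own total, and 9.35, 4.22 and 13.2 CPM in the oxygen libraries. Those groups overlapped, the values reached those of dentate granule-like nuclei, and the part of free RNA in the Cacng5 difference was not tested. Beside this, the CA2 marker list (6 genes, none at 0) summed to 205 to 230 CPM in sevoflurane and 153 to 188 CPM in oxygen dentate granule-like nuclei, against 416 to 560 CPM in CA2 pyramidal-like nuclei. Pcp4, Necab2 and Map3k15 were higher in every sevoflurane library. Pcp4 was the largest part of the sum, at 127 to 153 CPM against 91.5 to 116 CPM. For the rest of the list, Amigo2, Rgs14 and Stard5, the groups overlapped. Amigo2 stood at 2.06 to 2.69 CPM against 2.32 to 3.71 CPM, and Rgs14 at 21.9 to 23.4 CPM against 18.3 to 23.6 CPM. Other lists were higher there without overlap too: the inhibitory list (5 genes, 95.1 to 101 against 73.4 to 85.3 CPM), the immature neuron list (5 genes, 49.9 to 52.9 against 39.0 to 45.2 CPM) and the ependymal list (8 genes, 17.5 to 21.6 against 12.3 to 16.1 CPM), with none at 0 and 1, 2 and 2 genes higher in every sevoflurane library. The part of these lists in the change of Cacng5 was not tested.

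In CA2 pyramidal-like nuclei, where Cacng5 is highest, it did not rise. The oxygen libraries held 58.5, 54.1 and 63.9 CPM and the sevoflurane libraries 35.5, 66.5 and 37.6 CPM, and sevoflurane replicate 2 was the highest of all, so the groups overlapped (log2 fold change -0.29, SE 0.22, adjusted p 0.689). In CA1 pyramidal-like nuclei the levels were 1.37, 1.11 and 1.34 CPM against 4.58, 2.88 and 2.05 CPM, on 8 to 10 and 18 to 44 UMIs. The groups lay apart, and the change of 1.32 (SE 0.37) had an adjusted p of 0.0902. Inhibitory-like nuclei held 5.51, 7.91 and 6.97 CPM against 8.82, 14.2 and 11.4 CPM, also without overlap (0.77, SE 0.23, adjusted p 0.117), and subicular or cortical excitatory-like nuclei showed 0.36 (SE 0.28, adjusted p 0.586) with overlapping groups. Oligodendrocyte precursor-like nuclei had 1, 0 and 1 Cacng5 UMIs in the oxygen libraries and 9, 8 and 9 in the sevoflurane libraries (10.8, 10.1 and 11.8 CPM), too few to pass the filter on low counts. Without that filter this difference was called (adjusted p 0.0257), and so were those in CA1 pyramidal-like (0.0185) and inhibitory-like nuclei (0.0311). CA3 pyramidal-like nuclei, with 1 to 8 UMIs per library, gave no tested value.

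Cacng2 (chr15:77991748-78120028, minus strand), stargazin, fell in CA1 pyramidal-like nuclei. It stood at 44, 44.9 and 40.4 CPM in the oxygen libraries and 31.2, 26.9 and 29.9 CPM in the sevoflurane libraries. The groups did not overlap, and the log2 fold change was -0.56 (SE 0.10, adjusted p 0.0180), with -0.49 (adjusted p 0.0381) after the span correction. The call was lost without sevoflurane replicate 2 or without oxygen replicate 1, 2 or 3 (-0.61 to -0.50, adjusted p 0.0581 to 0.106). These levels lie close to those of microglia-like nuclei, 20.2 to 46.7 CPM. The lowest value of all members, -1.76 (SE 0.59, adjusted p 0.238) for Cacng2 in CA2 pyramidal-like nuclei, rested on 34.1, 9.02 and 18.6 CPM against 12.3, 5.04 and 1.21 CPM, which overlapped. The counts behind it were 28, 7 and 16 UMIs against 9, 5 and 1 UMIs. This change was called without oxygen replicate 2 (-2.09, adjusted p 0.0395), the oxygen library whose level lay within the sevoflurane range. An antisense gene, A730060N03Rik, overlaps Cacng2, so its reads may be counted with it.

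Cacng8 (chr7:3390683-3415648, plus strand), the shortest member and the main regulatory protein of hippocampal pyramidal neurons, also fell in CA1 pyramidal-like nuclei. The oxygen libraries held 223, 189 and 182 CPM and the sevoflurane libraries 151, 141 and 140 CPM. All sevoflurane libraries were below all oxygen libraries, with a log2 fold change of -0.47 (SE 0.09, adjusted p 0.0207), and the span correction left it at -0.49 (adjusted p 0.0266). It was not called without sevoflurane replicate 2 or 3 or without oxygen replicate 1 or 2 (-0.50 to -0.37, adjusted p 0.0550 to 0.0881). In astrocyte-like nuclei, fitted for comparison, Cacng8 fell too, from 79.7, 75.6 and 61.0 CPM to 49.4, 46.5 and 45.6 CPM (-0.62, SE 0.15, adjusted p 0.0309), where 1.27% of genes were called lower. At the finer clustering, nuclei that carry the astrocyte markers lay in different clusters by group: cluster 6 held 73, 40 and 46 sevoflurane and 505, 701 and 569 oxygen nuclei, and cluster 11 held 260, 566 and 587 sevoflurane and 60, 11 and 24 oxygen nuclei. The part of this in the Cacng8 call was not tested. No other member was called in astrocyte-like nuclei, and none was called in oligodendrocyte-like or microglia-like nuclei.

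Cacng3 (chr7:122670492-122769393, plus strand) was called in no whole class by edgeR with the filter on low counts and all libraries. With all libraries, subicular or cortical excitatory-like nuclei passed by DESeq2 (-0.59, adjusted p 0.00412) and by edgeR without that filter (-0.58, adjusted p 0.00188), and dentate granule-like nuclei passed without the filter (-0.28, adjusted p 0.0467). In subicular or cortical excitatory-like nuclei it stood at 167, 158 and 173 CPM in the oxygen libraries and 139, 72.1 and 117 CPM in the sevoflurane libraries. Sevoflurane replicate 2, with 312 nuclei against 592 to 895 in the other libraries of this class, was far the lowest, and the change was -0.56 (SE 0.20, adjusted p 0.240). Within cluster 8, the largest of the 6 clusters in this class, Cacng3 was called at -0.42 (SE 0.11, adjusted p 0.0304) and Gria4 at -0.39 (SE 0.08, adjusted p 0.00567), where 2.5% of genes were called lower. Without sevoflurane replicate 1, Cacng3 was also called in dentate granule-like (-0.35, adjusted p 0.0435) and CA1 pyramidal-like nuclei (-0.45, adjusted p 0.0328).

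Shisa9 (chr16:11984113-12270902, plus strand), which slows the recovery of AMPA receptors from desensitisation, was the member that fell in most classes. In dentate granule-like nuclei it stood at 925, 934 and 877 CPM in the oxygen libraries and 636, 594 and 589 CPM in the sevoflurane libraries. No sevoflurane library came near the lowest oxygen library, and the log2 fold change was -0.58 (SE 0.06, adjusted p 0.00157), a level of 0.667 of that in oxygen. It was -0.39 (SE 0.07, adjusted p 0.00766) within cluster 1 and -0.44 (SE 0.08, adjusted p 0.0249) within cluster 2, where 2.23% and 0.419% of genes were called lower. After thinning to 2000 UMIs, 67.5%, 64.9% and 64.4% of these nuclei had a Shisa9 UMI after sevoflurane and 76.3%, 77.5% and 75.8% after oxygen, against 3.33% to 9.71% of microglia-like nuclei (89.5% to 90.9% and 94.3% to 95.8% before thinning).

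**Figure D5:**
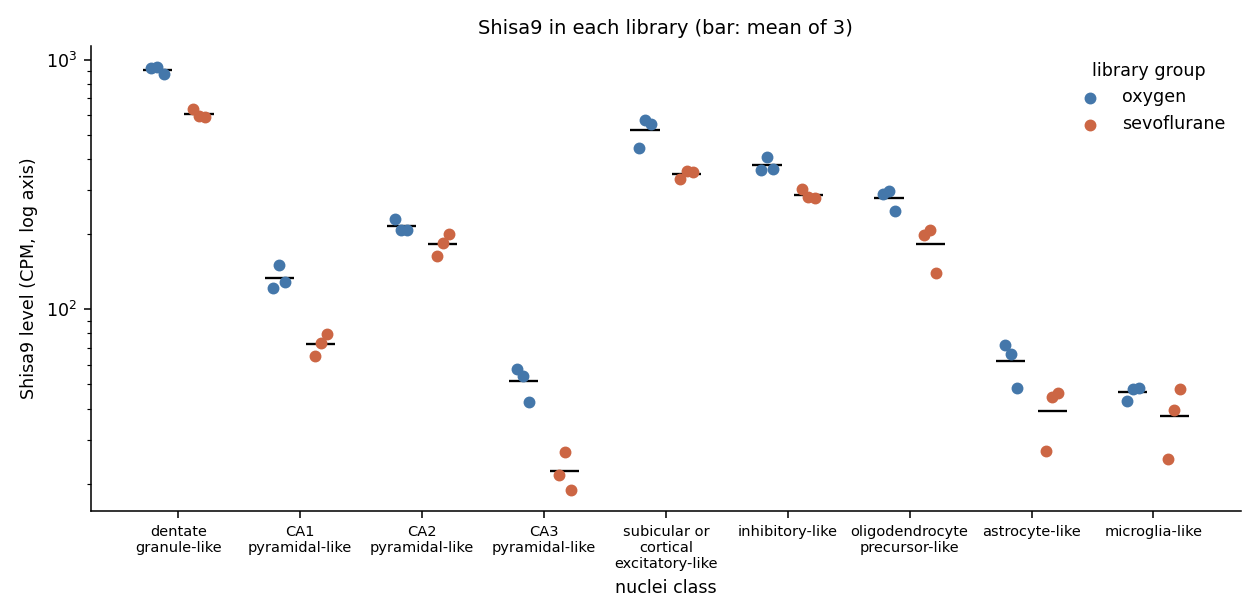
Shisa9 level in CPM (log axis) in each library of 9 classes, oxygen in blue and sevoflurane in orange, with the mean of 3 libraries as a bar. In all 7 neuron and precursor classes the 3 sevoflurane libraries lie below the 3 oxygen libraries, while in microglia-like nuclei the groups overlap.

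In CA1 pyramidal-like nuclei Shisa9 had 122, 150 and 129 CPM in the oxygen libraries and 65.0, 73.2 and 79.3 CPM in the sevoflurane libraries (log2 fold change -0.89, SE 0.10, adjusted p 0.00202). In CA3 pyramidal-like nuclei it had 57.9, 53.8 and 42.7 CPM against 21.7, 26.8 and 18.9 CPM (-1.20, SE 0.15, adjusted p 0.00307). Neither pair of groups overlapped, and both calls, like the dentate one, held in all 6 fits with 1 library left out and with the span correction. The CA3 levels overlapped those of microglia-like nuclei, 42.8, 48.1 and 48.6 CPM in oxygen and 25.1, 39.6 and 47.8 CPM in sevoflurane, and the part of free RNA in them was not tested. In the dentate, CA1 and CA3 nuclei the subicular or cortical excitatory marker list (10 genes, none at 0) lay lower after sevoflurane without overlap. Sums were 384 to 417 against 448 to 507, 617 to 687 against 710 to 798 and 2020 to 2380 against 2410 to 2660 CPM. In that order 3, 1 and 4 of its genes were lower in every sevoflurane library, and none was higher. Other lists moved without overlap too, in either direction, and the part of these lists in the Shisa9 falls was not tested.

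Shisa9 also fell in subicular or cortical excitatory-like nuclei, from 441, 574 and 552 CPM to 333, 358 and 355 CPM (-0.57, SE 0.10, adjusted p 0.0105). This call was lost without oxygen replicate 2 (-0.50, adjusted p 0.0606) or 3 (-0.54, adjusted p 0.0576) and with the span correction (-0.38, adjusted p 0.0709). Clusters 8 (-0.46, adjusted p 0.00679) and 11 (-0.55, adjusted p 0.0119) of this class showed it alone, the latter beside 1.54% of genes called lower, and clusters 21 and 27 were not called. Inhibitory-like nuclei had 360, 409 and 365 CPM against 303, 283 and 278 CPM (-0.38, SE 0.08, adjusted p 0.0221), a call that was lost without sevoflurane replicate 2 or 3 or without oxygen replicate 2 or 3 (-0.41 to -0.33, adjusted p 0.0634 to 0.125) and with the span correction (-0.23, adjusted p 0.223). In oligodendrocyte precursor-like nuclei the levels were 291, 298 and 248 CPM against 199, 207 and 140 CPM (-0.63, SE 0.14, adjusted p 0.0230). This was lost without sevoflurane replicate 3 or without oxygen replicate 1 or 2 (-0.61 to -0.47, adjusted p 0.0827 to 0.185) and with the span correction (-0.45, adjusted p 0.225). In all 3 classes every sevoflurane library lay below every oxygen library. CA2 pyramidal-like nuclei, with 231, 207 and 208 CPM against 164, 185 and 201 CPM, showed no called change (-0.21, SE 0.13, adjusted p 0.597).

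Shisa6 (chr11:66211725-66525964, minus strand), which keeps AMPA receptors at synapses from desensitising, fell in the dentate granule-like and all 3 pyramidal-like classes. It was not called in the other 3 classes, but its response there did not pass the test of a difference from dentate granule-like nuclei either (adjusted p 0.376 to 0.441). In CA3 pyramidal-like nuclei it stood at 1670, 1810 and 1550 CPM in the oxygen libraries and 1130, 1280 and 1320 CPM in the sevoflurane libraries. The groups lay apart, with a log2 fold change of -0.43 (SE 0.07, adjusted p 0.0132) that was called in all 6 fits with 1 library left out. CA1 pyramidal-like nuclei showed 1110, 1260 and 1140 CPM against 760, 840 and 974 CPM (-0.46, SE 0.09, adjusted p 0.0253), and CA2 pyramidal-like nuclei 1410, 1380 and 1380 CPM against 945, 1070 and 1040 CPM (-0.43, SE 0.09, adjusted p 0.0212). For dentate granule-like nuclei, 782, 793 and 716 CPM faced 558, 644 and 631 CPM (-0.32, SE 0.07, adjusted p 0.0344), and neither dentate cluster alone was called (-0.24 and -0.14). The sevoflurane libraries were below the oxygen libraries in each of these classes. The dentate call survived only the fit without sevoflurane replicate 3 and the CA2 call only that without sevoflurane replicate 2. In the other 5 fits of each, the change was -0.36 to -0.26 (adjusted p 0.0569 to 0.131) and -0.45 to -0.39 (0.0629 to 0.0980), and without sevoflurane replicate 1 it was -0.26 (0.0571) and -0.39 (0.0685). The CA1 call was lost without sevoflurane replicate 2 or without oxygen replicate 1, 2 or 3 (-0.49 to -0.40, adjusted p 0.0775 to 0.140). With the span correction the 4 changes were -0.13, -0.31, -0.30 and -0.28 in the order dentate granule, CA1, CA2 and CA3, with adjusted p of 0.295, 0.0878, 0.177 and 0.0594. Subicular or cortical excitatory-like nuclei had 141, 156 and 156 CPM against 142, 264 and 178 CPM (0.36, SE 0.23, adjusted p 0.523), with sevoflurane replicate 2 the highest.

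Whether a response differed between classes was tested on the difference within each library, dentate granule-like minus another class, with limma. Of 56 such differences for the members, 2 were called, and 17 had an unadjusted p under 0.05. Of all genes, 1493 of 14409 had such a p against CA1, 616 of 8077 against CA2 and 1403 of 13231 against CA3 pyramidal-like nuclei. The counts were 1203 of 14231 against subicular or cortical excitatory-like, 1153 of 13746 against inhibitory-like and 837 of 9471 against oligodendrocyte precursor-like nuclei. Over all genes 0.888% were called against CA1 pyramidal-like, 0.297% against CA2 pyramidal-like, 1.22% against CA3 pyramidal-like, 0.239% against subicular or cortical excitatory-like, 0.269% against inhibitory-like and 0.0845% against oligodendrocyte precursor-like nuclei. Cacng5 changed by 1.14 in dentate granule-like and by -0.38 in CA2 pyramidal-like nuclei on the scale of this test (log2 CPM with a prior count of 2), a difference of 1.52 (SE 0.28, limma adjusted p 0.00719). It was not called without sevoflurane replicate 1 (1.35, adjusted p 0.0542) or 3 (1.48, adjusted p 0.0882). For Cacng8 the changes were -0.15 in dentate granule-like and -0.46 in CA1 pyramidal-like nuclei, and the difference of 0.31 (SE 0.07, adjusted p 0.0450) was called in 1 of 6 fits with 1 library left out, that without sevoflurane replicate 1. In the other 5 it was 0.29 to 0.36 with an adjusted p of 0.0828 to 0.151. The response of Shisa9 in dentate granule-like nuclei did not pass the test of a difference against any other class: against CA3 pyramidal-like nuclei the difference was 0.60 (SE 0.13, 95% interval 0.34 to 0.86, adjusted p 0.0796) and against oligodendrocyte precursor-like nuclei 0.04 (SE 0.13, interval -0.22 to 0.30). The difference against CA3 was called without sevoflurane replicate 2 (0.75, adjusted p 0.00201) or oxygen replicate 3 (0.69, adjusted p 0.0486). With all libraries and the replicate block it was called as well (0.60, adjusted p 0.014). Cacng2 in dentate granule-like minus CA1 pyramidal-like nuclei was 0.38 (SE 0.10, adjusted p 0.107) and was called without sevoflurane replicate 1 (0.46, adjusted p 0.0472). Shisa6 in dentate granule-like minus subicular or cortical excitatory-like nuclei was -0.64 (SE 0.19, adjusted p 0.441).

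A list of 34 other genes of the AMPA receptor pathway (further auxiliary subunits, assembly factors, scaffolds, organisers outside the cell, kinases and editing enzymes) was set beside the members. Of 33 tested in dentate granule-like nuclei 1 was called higher and 1 lower, in CA1 pyramidal-like nuclei 2 of 32 were lower, in subicular or cortical excitatory-like nuclei 1 of 34 and in oligodendrocyte precursor-like nuclei 2 of 30, while in CA2 pyramidal-like (28 tested), CA3 pyramidal-like (31) and inhibitory-like nuclei (33) none was. The shares of all genes called are those given above, 1.47% lower in CA1 pyramidal-like and 0.94% lower in oligodendrocyte precursor-like nuclei among them. The list's median log2 fold change lay between -0.10 and 0.03 in these classes.

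The scaffold Dlg1 fell in dentate granule-like nuclei, from 231, 236 and 230 CPM to 182, 165 and 178 CPM (log2 fold change -0.40, SE 0.06, adjusted p 0.00766), and in subicular or cortical excitatory-like nuclei, from 463, 479 and 475 CPM to 346, 335 and 340 CPM (-0.46, SE 0.07, adjusted p 0.00714). In CA1 pyramidal-like nuclei it was -0.39 (SE 0.10, adjusted p 0.0614). Nptxr, a neuronal pentraxin receptor that gathers AMPA receptors at synapses, rose in dentate granule-like nuclei from 96.8, 92.7 and 92.1 CPM to 109, 125 and 111 CPM (0.30, SE 0.07, adjusted p 0.0413), with 0.77 (SE 0.22, adjusted p 0.104) in CA2 pyramidal-like and 0.39 (SE 0.13, adjusted p 0.164) in inhibitory-like nuclei. The auxiliary subunit Prrt1 fell in CA1 pyramidal-like nuclei from 85.7, 76.7 and 92.5 CPM to 61.7, 55.8 and 50.6 CPM (-0.61, SE 0.10, adjusted p 0.00913). The kinase Camk2a, which phosphorylates Gria1, fell there from 1540, 1530 and 1480 CPM to 1160, 1270 and 1260 CPM (-0.31, SE 0.06, adjusted p 0.0253). In oligodendrocyte precursor-like nuclei the scaffold Grip1 fell from 525, 488 and 367 CPM to 313, 279 and 303 CPM (-0.64, SE 0.13, adjusted p 0.00733), and the regulatory protein Cacng4 from 677, 633 and 587 CPM to 476, 447 and 503 CPM (-0.43, SE 0.11, adjusted p 0.0499). In all of these called pairs the groups did not overlap. Neither the span correction nor fits with 1 library left out were evaluated for these pathway genes.

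Promoter sequences of RefSeq (GRCm38.p6, the assembly called mm10) were found for 6 of the 10 members, and none for Gria1, Gria3, Shisa6 and Shisa9. The 250 bases before the start are shown for Cacng5, the member that rose, beside those of Gria4, which fell, and Gria2, which was not called, on the minus strand at chr11:107915056-107915305, chr9:4796235-4796484 and chr3:80802836-80803085. Capitals mark the GC box.

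Cacng5: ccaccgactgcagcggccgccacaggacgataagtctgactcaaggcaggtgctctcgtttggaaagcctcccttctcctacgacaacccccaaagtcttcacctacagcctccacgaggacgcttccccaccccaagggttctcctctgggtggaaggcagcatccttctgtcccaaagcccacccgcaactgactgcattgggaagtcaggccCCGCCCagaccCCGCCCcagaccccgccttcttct
Gria4: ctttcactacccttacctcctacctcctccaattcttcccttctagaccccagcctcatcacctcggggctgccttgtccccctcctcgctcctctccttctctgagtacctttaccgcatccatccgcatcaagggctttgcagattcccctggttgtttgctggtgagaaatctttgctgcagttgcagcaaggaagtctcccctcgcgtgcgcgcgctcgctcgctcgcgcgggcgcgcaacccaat
Gria2: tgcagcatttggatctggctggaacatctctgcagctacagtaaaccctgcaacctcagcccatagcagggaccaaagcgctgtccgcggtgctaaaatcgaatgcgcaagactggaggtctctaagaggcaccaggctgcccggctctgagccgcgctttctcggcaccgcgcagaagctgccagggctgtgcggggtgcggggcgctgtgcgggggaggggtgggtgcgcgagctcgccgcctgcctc

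The windows were searched on both strands for the GC box GGGCGG, the cAMP response element TGACGTCA and the start of it, TGACG, the E-box CACGTG and the TATA box TATAAA. The Cacng5 window held 2 GC boxes (CCGCCC on the strand shown) and none of the others, and the windows of Gria4 and Gria2 held none of the 5 motifs. Of 32851 promoter windows of this length, 32.7% held a GC box, 1.55% the cAMP response element, 17.8% TGACG, 6.02% the E-box and 12.4% the TATA box. The base content was 62.0% G and C for Cacng5, 58.8% for Gria4 and 64.8% for Gria2. Another RefSeq start of Cacng5, inside the gene, had none of the motifs. A match is a run of letters and not a site of binding.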

How the data were processed

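Single nuclei of 6 hippocampus libraries were counted. The deposited counts are UMIs per gene and barcode, made by the authors with fastp and Cell Ranger 7.1.0 on mm10, per the submitters' processing notes. Whether intronic reads or strand were used is not given in the sources used here. Kept nuclei had 500 or more UMIs, 300 or more genes and no more than 5% mitochondrial UMIs (53287 of 53824 barcodes), and 1413 predicted doublets were removed at a Scrublet score of 0.3, since the automatic threshold called 0 in oxygen replicate 1. Clustering (scanpy 1.11.5, igraph 0.11.9, Python 3.11.15) used 3000 variable genes, 40 components, 20 neighbours and Leiden resolution 1.0. Clusters were named from 27 marker lists, and unnamed clusters were left out. Counts were summed per class and library and tested with edgeR 4.0.16 in R 4.3.3 (quasi-likelihood, TMM, filterByExpr, treatment as the only term), with differences between classes by limma 3.58.1 (prior count 2) and DESeq2 1.42.0 as an alternative. The edgeR and limma steps were checked on simulated counts. Gene spans are from GENCODE M21, matched by ID for 32235 of 32285 genes. The named genes are all 10 members, the pathway genes called in a class, and the 3 genes most like each member, of which 1 is not reported here. The members and lists were chosen with earlier results of these data known. Alternatives covered normalisation, low-count filter, each library left out, replicate block, gene span, nuclei filter, doublets and resolution; single clusters were added after the data were seen. Class totals ranged from 10524044 to 15964157 UMIs per library in dentate granule-like nuclei from 704861 to 975995 in CA2 pyramidal-like nuclei and from 491049 to 839832 in oligodendrocyte precursor-like nuclei. Shares of nuclei cover counting error only.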

Additional observations from a re-analysis of the deposited data

Results flagged for a closer look

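The response to sevoflurane differed between classes for 2 members by a test of the difference itself (limma, adjusted over all genes). Cacng5 differed by 1.52 on the log2 scale between dentate granule-like and CA2 pyramidal-like nuclei (adjusted p 0.00719), and without sevoflurane replicate 1 or 3 the difference was 1.35 or 1.48 with an adjusted p of 0.0542 or 0.0882. Cacng8 differed by 0.31 between dentate granule-like and CA1 pyramidal-like nuclei (adjusted p 0.0450), with an adjusted p of 0.0268 to 0.151 over the fits with 1 library left out.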

How the results depend on the processing

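The count of members called higher was 1, and it was 1 under every alternative run except without the filter on low counts, where it was 4. The count called lower, 17, became 26 without that filter, 5 with the gene span correction, 11 with the replicate block and 4 with the replicate block and gene span correction together. With 1 library left out it ranged from 5 to 16, and the count called higher from 1 to 1. DESeq2 called 21 lower. Shares of all genes called under these alternatives are given only for the span correction, in the classes where calls were kept. The other counts are thus not set against a background of their own, and a larger count may come with more calls among all genes. The count of called response differences, 2, became 4 with the replicate block and ranged from 0 to 2 with 1 library left out, not always for the same members. The block added Cacng2 against CA2 pyramidal-like nuclei (1.32, limma adjusted p 0.00241) and Shisa9 against CA3 pyramidal-like nuclei (0.60, limma adjusted p 0.014). Without the block the limma adjusted p was 0.756 and 0.0796, and Cacng2 in CA2 pyramidal-like nuclei rested on 1 to 28 UMIs per library. Samples with the same replicate number did not deviate together (correlations of -0.115 to 0.021), so the numbers were not taken as pairs. Of 296 alternative values of the 20 called results, 204 stayed called and 92 did not. Of 1191 values of the 102 other results, 25 became called, and 80 uncalled ones changed sign. No called result changed direction. Depth limits Cacng5 in precursor-like nuclei, with 0 to 9 UMIs per library, and in CA3 pyramidal-like nuclei, with 1 to 8.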
